A study of Bos taurus with 30 samples.

Results

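miR-21, miR-221 and miR-222 are microRNAs (miRNAs), short RNAs that repress the messenger RNAs carrying matching sites, and in mouse testis they have been linked to the undifferentiated state of spermatogonia. Every entry of the deposited table with exactly one of these names was taken, whichever arm of the hairpin it came from. This gave 4 of the 1030 bovine miRNAs listed: miR-21-5p, miR-21-3p, miR-221 and miR-222. The study compared planes of nutrition during calfhood, and small RNA was sequenced from whole testis of 30 bull calves of the Holstein-Friesian breed, with 1 library per calf. High was fed to 15 calves, as 1.5 kg of milk replacer daily, made up to 10 L, with concentrate ad libitum, for a planned growth of 1.0 kg a day. Moderate was fed to the other 15, as 0.5 kg of milk replacer daily, made up to 4 L, with 0.5 kg of concentrate, for a planned growth of 0.5 kg a day. Both diets began at 2 weeks of age, all testes were collected at 12 weeks, and the groups shared breed, sex and tissue.

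Spermatogonial stem cells either renew themselves or enter differentiation, a step that in mice needs the receptor tyrosine kinase KIT on the cell surface. In mouse spermatogonia miR-221 and miR-222 repress KIT, and miR-21 is enriched in the stem cell fraction, where its loss leads to cell death. None of these miRNAs is specific to germ cells: miR-21 is abundant in immune and connective tissue cells, and miR-221 and miR-222 in blood vessel walls. RefSeq's annotation of the cattle assembly ARS-UCD2.0 places MIR21 on chromosome 19, next to VMP1, and MIR222 and MIR221 beside each other on chromosome X. miR-221 and miR-222 share a seed, the bases that select targets, and miR-21-5p has a different one.

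Values are the deposited ones, counts scaled to a common library size (CPM) after trimmed-mean normalization (TMM), written below as TMM-scaled CPM. Depth is taken here as the reads recovered from the deposited values, summed over all listed miRNAs, and not as all reads sequenced. It was 6.0003 to 19.98 M reads per library, in a lower range of up to 10.3 M (11 High, 13 Moderate) and a higher one from 16.7 M (4 High, 2 Moderate). Moderate replicate 5 stood apart from the other libraries, since miR-10b took up 84.8% of its reads and 37.0% to 49.0% elsewhere, so results are also given without it. The diet is the diet characteristic in the labels, and the H or L that ends each library's code matches it in all 30 libraries. The sample titles name the other diet for 18 of them, as do the words of the description. These are whole testes. miR-202, linked both to gonadal somatic cells and to spermatogonia, stood at 2335 ± 211 TMM-scaled CPM under High and 2315 ± 549 under Moderate (SD, n = 15 each). The striated muscle miRNAs miR-1 and miR-206 were listed at 0 in every library. Other striated muscle miRNAs were present at low means, miR-133a at 10.2 under High and 10.4 under Moderate, miR-499 at 6.62 and 4.60, and miR-133b at 1.37 and 1.29. The data do not show which cells carried the 4 miRNAs. In such bulk tissue, fewer cells of a type and less RNA per cell cannot be told apart.

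The members differed widely in level. miR-21-5p was among the most abundant miRNAs of the testis, at 0.733% of the reads recovered for all listed miRNAs on average, and ranked 17 of 387 tested miRNAs by mean log2 level. The opposite arm miR-21-3p, usually the degraded strand of the hairpin, ranked 136, miR-221 ranked 131 and miR-222 ranked 163. Each read covers a whole miRNA, so these levels need no correction for length, although the capture of different sequences by the library kit was not measured. miR-21-5p was counted from 10808 to 196193 reads per library, miR-21-3p from 119 to 2393, miR-221 from 93 to 1896 and miR-222 from 124 to 1162. All 4 lowest counts belonged to Moderate replicate 5, and none was near the limit of 3 reads that a count of 0 allows.

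None of the 4 miRNAs passed the test for diet. In limma on log2(value + 0.5), 19 of the 387 miRNAs tested, or 4.91%, had an adjusted p under 0.05 (Benjamini-Hochberg over all 387, two-sided), and 0 of the 4 members were among them, nor was any member at an unadjusted p under 0.05. The log2 fold changes, High minus Moderate, lay between -0.16 and 0.07, beside a median of 0.03 over all miRNAs tested. On the recovered reads edgeR called 36 of 378 miRNAs (9.52%) and DESeq2 50 of the 838 it fitted (5.97%). DESeq2 sets low miRNAs aside before it adjusts p, so its share among the miRNAs adjusted was higher than 5.97%, and was not computed. Neither called a member, with adjusted p from 0.304 to 0.938 in edgeR and from 0.353 to 0.858 in DESeq2. Without Moderate replicate 5, limma called 45 of 385 miRNAs (11.7%) and again 0 of the 4.

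miR-21-5p, the working strand of miR-21, ranged under High from 5682 to 10885 TMM-scaled CPM with a median of 6707. Under Moderate it ranged from 5141 to 12547 with a median of 6185. The ranges overlapped almost entirely, although 12 of 15 High libraries lay above the Moderate median. The means were 7216 ± 1449 under High and 6965 ± 1909 under Moderate (SD, n = 15 each). The log2 fold change was 0.07 (standard error 0.11, 95% confidence interval -0.15 to 0.29, adjusted p = 0.770 in limma). The highest value of all was in Moderate replicate 11 and the next in High replicate 6, so both diets held a calf far above its group's median.

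miR-21-3p, which comes from the same hairpin, spread less widely under High than under Moderate. It ranged from 62.6 to 89.0 TMM-scaled CPM under High, with a median of 71.3. Under Moderate it ranged from 56.6 to 234, with a median of 68.1. Moderate replicates 11, 15 and 2, at 234, 128 and 122 TMM-scaled CPM, lay above the highest High library. The means were 72.9 ± 8.20 under High and 86.2 ± 46.1 under Moderate (SD, n = 15 each), a coefficient of variation of 11.3% under High and 53.5% under Moderate, whose difference was not tested. Without Moderate replicate 11 the coefficient of variation under Moderate was 29.6%. The mean and the median thus pointed in opposite directions, with 11 of 15 High libraries above the Moderate median. The log2 fold change was -0.13 (standard error 0.14, 95% confidence interval -0.42 to 0.17, adjusted p = 0.658 in limma), and -0.015 without Moderate replicate 11. The myeloid miRNA miR-223 was highest in the same 3 Moderate libraries, at 13.3 in replicate 11, 9.18 in replicate 15 and 4.49 in replicate 2, against a median of 1.35 over all 30. The summed level of the 8 tested leukocyte miRNAs was 3929, 3199 and 3661 in those 3 libraries, within the range of 2701 to 6954 under High and 2530 to 5674 under Moderate. Most of this sum is miR-142-5p (mean 1696 under High and 1723 under Moderate) and miR-146b (1146 and 662), so it says little about miR-223. The part of leukocytes in the result was not tested.

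**Figure D1:**
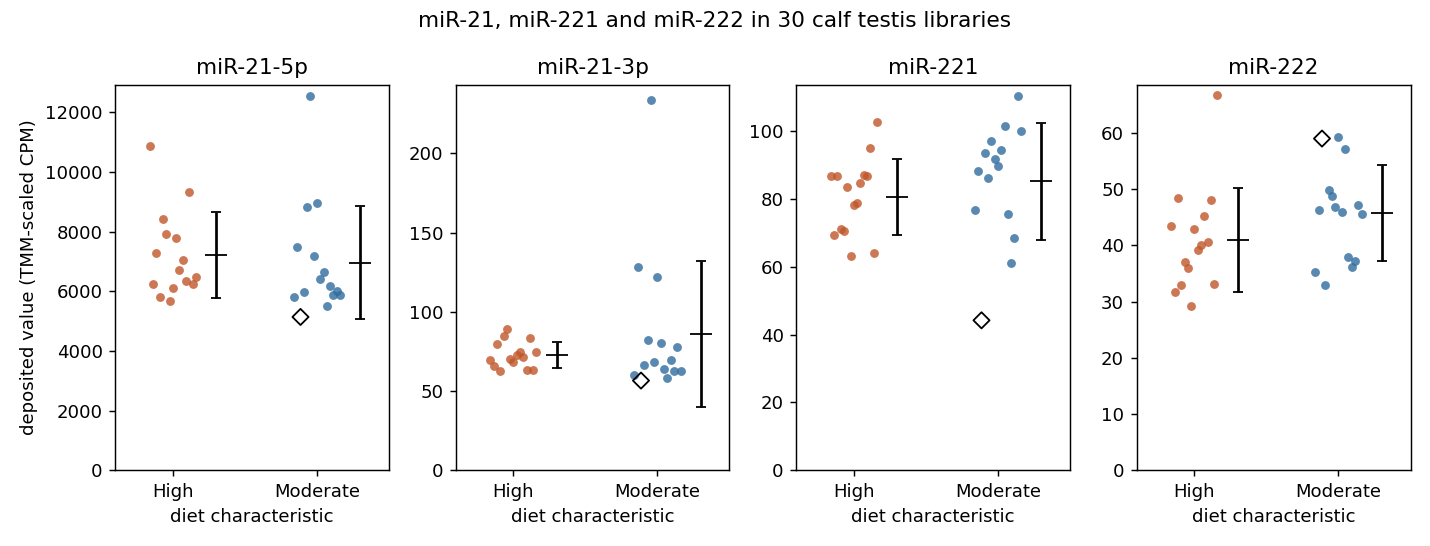
Deposited values (y axis, TMM-scaled CPM, from 0) of the 4 miRNAs in 15 High and 15 Moderate libraries by the diet characteristic, with 1 point per calf and the mean ± SD beside the points. The open diamond is Moderate replicate 5, and the 3 Moderate points far above the rest for miR-21-3p are replicates 11, 15 and 2.

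miR-221, a repressor of KIT in mouse spermatogonia, differed between the diets by less than the spread between calves. It ranged from 63.1 to 103 TMM-scaled CPM under High with a median of 83.6. Under Moderate it ranged from 44.2 to 110 with a median of 89.8, and 13 of the 15 High libraries were under it. The means were 80.6 ± 11.3 under High and 85.3 ± 17.3 under Moderate (SD, n = 15 each). The log2 fold change was -0.06 (standard error 0.10, 95% confidence interval -0.26 to 0.14, adjusted p = 0.778 in limma). Its lowest value was that of Moderate replicate 5, and without this library the log2 fold change was -0.13 (standard error 0.08, adjusted p = 0.320).

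miR-222, the neighbour of miR-221 on chromosome X, did not pass either. It ranged from 29.2 to 66.6 TMM-scaled CPM under High with a median of 40.1. Under Moderate it ranged from 32.95 to 59.3 with a median of 46.3. Of the 15 High libraries, 12 were below the median of Moderate, yet the highest value of all was in High replicate 8. The means were 41.0 ± 9.21 under High and 45.7 ± 8.53 under Moderate (SD, n = 15 each). The log2 fold change was -0.16 (standard error 0.10, 95% confidence interval -0.37 to 0.05, adjusted p = 0.390 in limma), and -0.13 without Moderate replicate 5. Without High replicate 8 it was -0.21 (95% confidence interval -0.40 to -0.02, unadjusted p = 0.0297, adjusted p = 0.181 in limma). On the recovered reads of all 30 libraries miR-222 stood at -0.19 in edgeR and -0.16 in DESeq2, and miR-21-3p at -0.27 in edgeR and -0.24 in DESeq2. The 95% confidence intervals of the 4 members lay between -0.42 and 0.29. With library totals alone in place of TMM, the median of all miRNAs tested was 0.21, and miR-21-5p stood at 0.28, miR-221 at 0.15, miR-21-3p at 0.083 and miR-222 at 0.047. With library totals and without Moderate replicate 5, an alternative added after the data were seen, they stood at 0.11 for miR-21-5p, -0.05 for miR-221, -0.09 for miR-21-3p and -0.06 for miR-222.

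The miR-21 fold changes varied with the label that names the diet, a difference that did not pass after adjustment. In the 12 libraries whose title and diet characteristic give the same diet (6 per diet), the log2 fold change of miR-21-5p was 0.44 (standard error 0.14, unadjusted p = 0.00725, adjusted p = 0.283 in limma). In the 18 libraries whose labels conflict (9 per diet by the characteristic), it was -0.18 (standard error 0.13, adjusted p = 0.559). Moderate replicate 5 was 1 of the 6 Moderate libraries of the 12. Among these 6 it had the least miR-21-5p, miR-21-3p and miR-221 (44.2 TMM-scaled CPM) and the most miR-222 (59.0). The 12 were not compared again without it. miR-21-3p stood at 0.27 in the 12 and at -0.39 in the 18, and miR-221 at 0.15 and -0.20. miR-222 was below 0 in both, at -0.09 and -0.21. Between these sets of libraries, the fold changes of miR-21-5p differed by 0.61 (standard error 0.20, unadjusted p = 0.00382, adjusted p = 0.785 in limma, a test added after the data were seen) and those of miR-21-3p by 0.66 (standard error 0.26, unadjusted p = 0.0178, adjusted p = 0.785). In limma 0 of the 387 miRNAs passed this test at the adjusted threshold, and 16 did at an unadjusted p under 0.05. That is a smaller share than the 0.05 this threshold gives on average with no difference.

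Grouped by the diet in the titles, miR-21-5p had the smallest p of the 387 miRNAs and miR-21-3p the third smallest, without passing the adjusted threshold. miR-21-5p averaged 7853 ± 1986 TMM-scaled CPM in the libraries titled High and 6328 ± 765 in those titled Moderate (SD, n = 15 each). The log2 fold change was 0.28 (standard error 0.10, unadjusted p = 0.00619, adjusted p = 0.981 in limma). miR-21-3p averaged 91.5 ± 43.9 in libraries titled High and 67.6 ± 7.76 in those titled Moderate, with a log2 fold change of 0.34 (standard error 0.13, unadjusted p = 0.0142, adjusted p = 0.981). miR-221 stood at 0.18 and miR-222 at 0.09, both with an adjusted p of 0.981. By title, limma called 0 of 387 miRNAs, while an unadjusted p under 0.05 was found for 11. This too is a smaller share than 0.05, so the smallest p of 387 is not a call. Moderate replicates 2, 11 and 15, the libraries with the most miR-21-3p, were all titled High. By the diet characteristic, 82 of 387 miRNAs had an unadjusted p under 0.05.

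**Figure D2:**
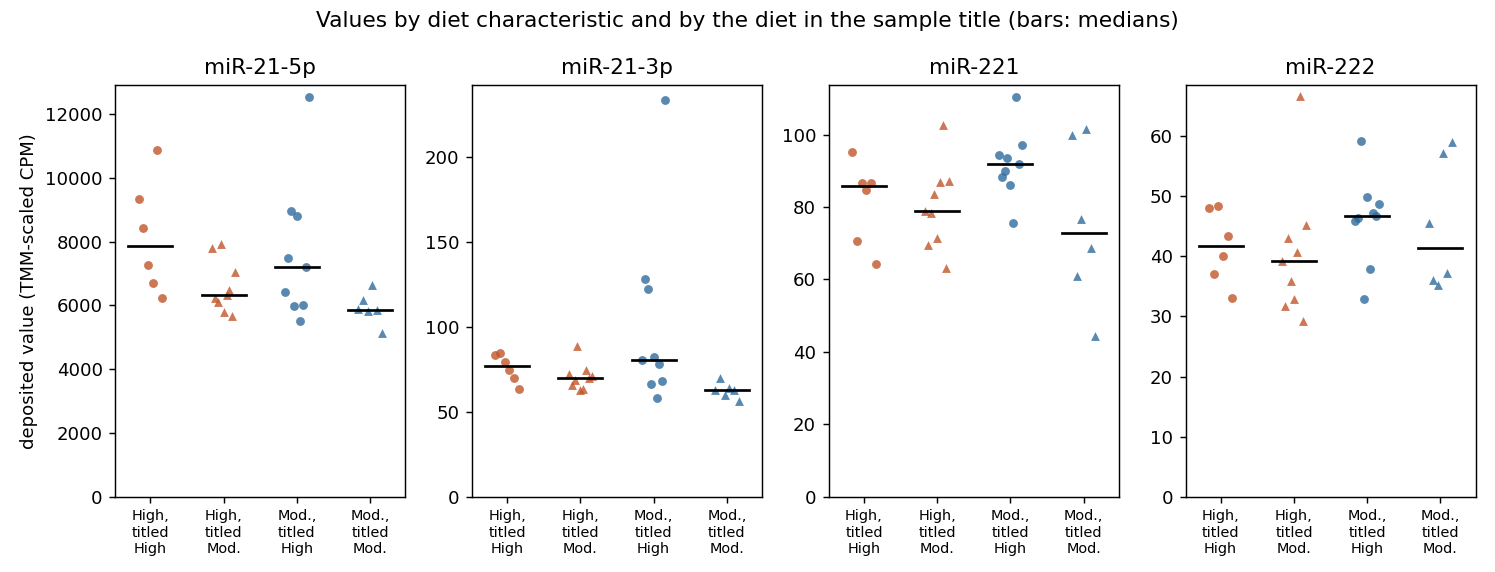
Deposited values (y axis, TMM-scaled CPM, from 0) in the 4 combinations of diet characteristic (orange High, blue Moderate) and diet in the sample title (circles High, triangles Moderate), 1 point per calf with a bar at the median. For miR-21-5p the medians of both sets titled High (7854 and 7197) lie above those of both sets titled Moderate (6335 and 5871).

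**Figure D3:**
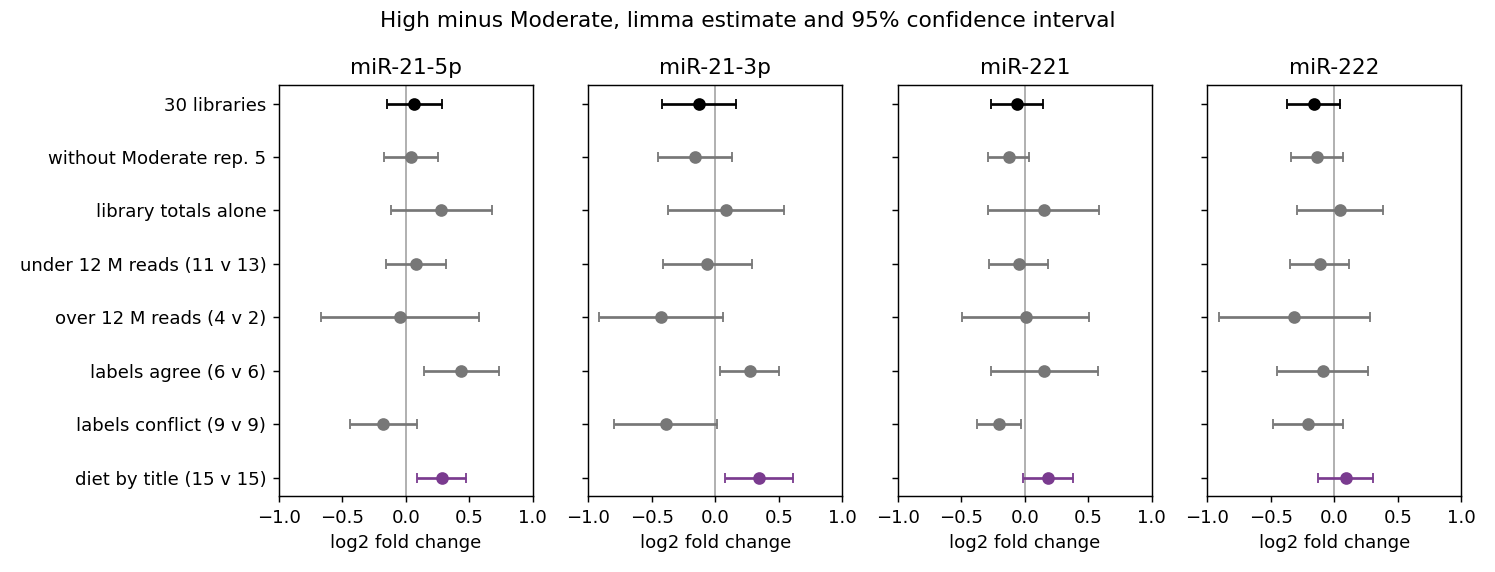
log2 fold change, High minus Moderate, with its 95% confidence interval (x axis) for each of the 4 miRNAs under 8 settings in limma, given as High against Moderate library numbers. All intervals of the 30-library comparison in the top row cross 0, and for both miR-21 arms the rows by label lie on both sides of it.

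Few miRNAs were called within a depth range: 3 of 385 (0.779%) in the lower and 2 of 397 (0.504%) in the higher one, none of them a member. In the 24 libraries of the lower depth range (11 High, 13 Moderate) the log2 fold changes were 0.08 for miR-21-5p, -0.06 for miR-21-3p, -0.05 for miR-221 and -0.11 for miR-222, with adjusted p from 0.652 to 0.874 in limma. In the 6 deeper libraries (4 High, 2 Moderate) they were -0.05 for miR-21-5p, -0.43 for miR-21-3p, 0.0065 for miR-221 and -0.32 for miR-222, with adjusted p from 0.496 to 0.997.

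Ratios within a library do not depend on its scaling factor, and these did not pass either. miR-21-5p outnumbered miR-21-3p by 81.2 to 156 times under High (median 94.5) and by 53.7 to 107 times under Moderate (median 90.8). Moderate replicate 11 had the lowest ratio of arms and High replicate 6 the highest. The difference of the log2 ratio was 0.19 (standard error 0.09, permutation p = 0.0475, n = 15 each, two-sided), which became 0.142 after adjustment over 3 ratios. Within the lower depth range it was 0.14 (11 against 13, permutation p = 0.170). miR-21-5p outnumbered miR-221 and miR-222 together by 38.2 to 83.7 times under High (median 61.6) and by 38.1 to 86.1 times under Moderate (median 52.0), a log2 difference of 0.17 (standard error 0.11, permutation p = 0.111, adjusted 0.166).

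miR-221 was more abundant than miR-222 in 29 of 30 libraries. The ratio of miR-221 to miR-222 was 1.54 to 2.33 under High (median 2.00) and 0.750 to 2.84 under Moderate (median 1.96), and 1.52 to 2.84 under Moderate without replicate 5. The difference of the log2 ratio was 0.10 (standard error 0.11, permutation p = 0.454, adjusted 0.454), and 0.01 without Moderate replicate 5 (standard error 0.07, permutation p = 0.909). Moderate replicate 5 was the library with less miR-221 than miR-222. It had 93 reads of miR-221 and 124 of miR-222, so miR-221 made up 42.9% of the reads of the pair (95% Clopper-Pearson interval 36.2% to 49.7%, counting error only). In the other 29 libraries it made up 60.2% to 73.9%.

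Over the calves, each miR-21 arm followed the other, and miR-221 followed miR-222. These relations were computed on log2(value + 0.5) with the mean of each diet subtracted, for the 6 pairs of members, with permutation p-values adjusted over the 6. The arms of miR-21 had Pearson's r = 0.78 (permutation p = 2e-05, adjusted 0.00012) and Spearman's rho = 0.76 (permutation p = 1e-05, the lowest value possible with 100000 resamples, adjusted 6e-05) over 30 libraries. Without Moderate replicates 11 and 15, the libraries farthest from the median of miR-21-3p, r was 0.68. In the lower depth range r was 0.85 and rho 0.84 (n = 24). In the 6 deeper libraries r was 0.51 (exact permutation p = 0.315, adjusted 0.315), and 0.27 without Moderate replicates 9 and 2. The 2 Moderate libraries among these 6 mirror each other once their mean is subtracted, and the exact permutation p does not allow for this.

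For miR-221 and miR-222, the relation was weaker with Moderate replicate 5 than without it. Over 30 libraries r was 0.38 (permutation p = 0.0381, adjusted 0.0762) and rho 0.53 (permutation p = 0.00306, adjusted 0.00918). Without Moderate replicate 5, r was 0.75 and rho 0.71 (n = 29, permutation p = 1e-05 and 6e-05, adjusted 6e-05 and 0.00018). Leaving out Moderate replicates 5 and 9, the libraries farthest from the median of miR-221, gave r = 0.72. In the lower depth range, which holds Moderate replicate 5, r was 0.22 (permutation p = 0.293) and rho 0.50, and r was 0.69 without replicates 5 and 7. In the 6 deeper libraries r was 0.99 (exact permutation p = 0.00139, the smallest 6 libraries allow, adjusted 0.00833) and rho 1, with r = 0.98 without Moderate replicates 9 and 2. The limit given above for these 6 libraries applies, so this p-value can be too small. All miRNAs of a library share its scaling factor.

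**Figure D4:**
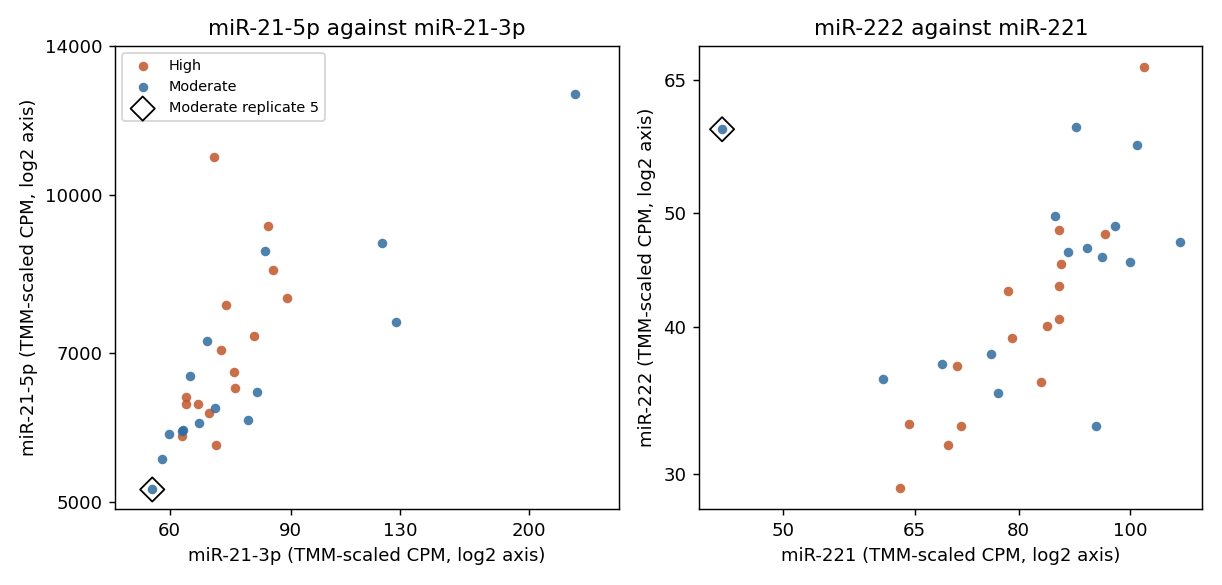
Left, miR-21-5p (y axis) against miR-21-3p (x axis), and right, miR-222 (y axis) against miR-221 (x axis), all in TMM-scaled CPM on log2 axes, 1 point per library, orange High and blue Moderate. Moderate replicate 5 (diamond) has the least miR-221, at 44.2, beside one of the highest miR-222 values, at 59.0, and has the least of both miR-21 arms.

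Relations between a miR-21 arm and miR-221 or miR-222 were also computed, and their difference from those within a pair was not tested. Over 30 libraries, miR-21-5p and miR-222 had r = 0.34 (permutation p = 0.0689, adjusted 0.0827) and rho = 0.47 (permutation p = 0.00901, adjusted 0.0180). miR-21-5p and miR-221 had r = 0.41 (permutation p = 0.0255, adjusted 0.0762) and rho = 0.42 (permutation p = 0.0206, adjusted 0.0310). In the lower depth range their r was 0.20 and 0.36, with adjusted p of 0.378 and 0.176 (permutation, n = 24). Leaving out the libraries farthest from the median of miR-21-5p, Moderate replicate 11 and High replicate 6, gave r = 0.37 with miR-222 and 0.41 with miR-221. miR-21-3p had r = 0.35 with miR-221 and 0.27 with miR-222 over 30 libraries, which did not pass. Without Moderate replicate 5, miR-21-5p and miR-222 had r = 0.44 and rho = 0.61 (adjusted permutation p = 0.0365 and 0.00114, n = 29). miR-21-3p and miR-222 then had r = 0.35 and rho = 0.47 (adjusted 0.0923 and 0.0145). With miR-221, miR-21-5p then had r = 0.33 and rho = 0.39 (adjusted 0.0954 and 0.045), and miR-21-3p r = 0.27 and rho = 0.29 (adjusted 0.159 and 0.124). In the 6 deeper libraries r between a miR-21 arm and miR-221 or miR-222 was 0.74 to 0.82, with adjusted exact permutation p from 0.0625 to 0.0767. The limit from the mirrored Moderate libraries applies to these p-values too.

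The miRNAs whose levels over the calves were most like those of the members, by rho, were taken from the other 386 tested miRNAs for each member, 1544 relations in all. For miR-21-5p they were miR-378 (r = 0.84, rho = 0.81), miR-21-3p and miR-147 (r = 0.69, rho = 0.71). For miR-21-3p they were miR-21-5p, miR-378 (r = 0.79, rho = 0.72) and miR-147 (r = 0.71, rho = 0.62). Adjusted over the 1544 relations, the permutation p-values of miR-378 with miR-21-5p were 0.00309 for r and 0.00515 for rho, and r was 0.75 without Moderate replicate 11 and High replicate 6. miR-378 was highest in Moderate replicate 11, at 221.9 TMM-scaled CPM against a median of 135. miR-147, a rare miRNA, averaged 2.48 TMM-scaled CPM and was highest in Moderate replicates 15, 11 and 2, at 5.13, 5.07 and 4.18. Within the lower depth range r with miR-21-5p was 0.87 for miR-378 and 0.70 for miR-147.

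For miR-221 the most similar were miR-1388-3p (r = 0.58, rho = 0.72), miR-23a (r = 0.77, rho = 0.69) and the red blood cell miRNA miR-451 (r = 0.64, rho = 0.62). Of these, miR-23a passed by both measures (adjusted permutation p = 0.00386 for r and 0.0129 for rho), miR-1388-3p by rho (0.0132, against 0.0598 for r) and miR-451 by r (0.0193, against 0.0618 for rho). When Moderate replicate 5 was left out, miR-451 passed by neither (0.0841 for r and 0.145 for rho), miR-23a by rho alone (0.0641 for r and 0.0139 for rho) and miR-1388-3p by both (0.0239 for r and 0.00858 for rho). For miR-222 they were miR-146a (r = 0.42, rho = 0.54), miR-221 and miR-2285aa (r = 0.53, rho = 0.50), none with an adjusted permutation p under 0.05. Without Moderate replicate 5 the order changed: miR-221 and miR-222 were then first for each other, and miR-146a was first for miR-21-5p, with r = 0.84 and rho = 0.77 (adjusted permutation p = 0.00257 and 0.00772) against r = 0.57 and rho = 0.61 with it. Moderate replicate 5 had the most miR-146a of all libraries, at 786 TMM-scaled CPM against a median of 179, and the least miR-21-5p.

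Other miRNAs linked to spermatogonia in mouse, goat or human were called at about the share of all miRNAs over 30 libraries. In this list of 17 tested, 1 rose, 0 fell and 16 did not pass in limma, beside the 4.91% called over all miRNAs tested, with a median log2 fold change of 0.07 beside 0.03 over all 387. miR-34c, miR-146a and miR-202 of this list also stand in the lists for meiotic germ cells, leukocytes and gonadal somatic cells. The one that rose was miR-34c, which is also abundant in meiotic and later germ cells, at 113 ± 42.1 TMM-scaled CPM under High and 64.6 ± 37.0 under Moderate (SD, n = 15 each; log2 fold change 0.96, adjusted p = 0.0260 in limma). The most abundant of the list were miR-424-5p, at 3795 ± 270 under High and 3701 ± 891 under Moderate, miR-202 and miR-100. The log2 fold change was 0.12 for miR-424-5p, 0.05 for miR-202 and 0.07 for miR-100. miR-20a, which promotes the renewal of mouse spermatogonial stem cells, averaged 294 ± 25.4 under High, beside 279 ± 76.0 under Moderate, with a log2 fold change of 0.18 (adjusted p = 0.601 in limma). Without Moderate replicate 5 the median of the list was 0.00, and miR-34c again was the 1 of 17 that passed. In that setting 11.7% of all miRNAs tested were called, and 1 of 17 is too small a count to tell apart from that share.

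Besides miR-221 and miR-222, miRNAs reported to repress KIT in human cells were also compared. Of 5 tested entries from 4 miRNAs, 0 passed in limma (1, miR-193b, had an unadjusted p under 0.05), beside 4.91% of all miRNAs tested, so that the count says little about the list, and the median log2 fold change was 0.03. miR-193b, the most abundant, averaged 81.9 ± 14.4 TMM-scaled CPM under High and 66.7 ± 16.6 under Moderate (SD, n = 15 each; log2 fold change 0.32, adjusted p = 0.0849 in limma). miR-193a-3p and miR-218 stood at 0.16 and 0.02. Without Moderate replicate 5, miR-494, which in human and mouse lies in the imprinted DLK1-DIO3 region, fell (log2 fold change -0.38, adjusted p = 0.00645 in limma, against -0.23 and 0.449 with that library). KIT itself and other mRNAs were not analysed here.

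**Figure D5:**
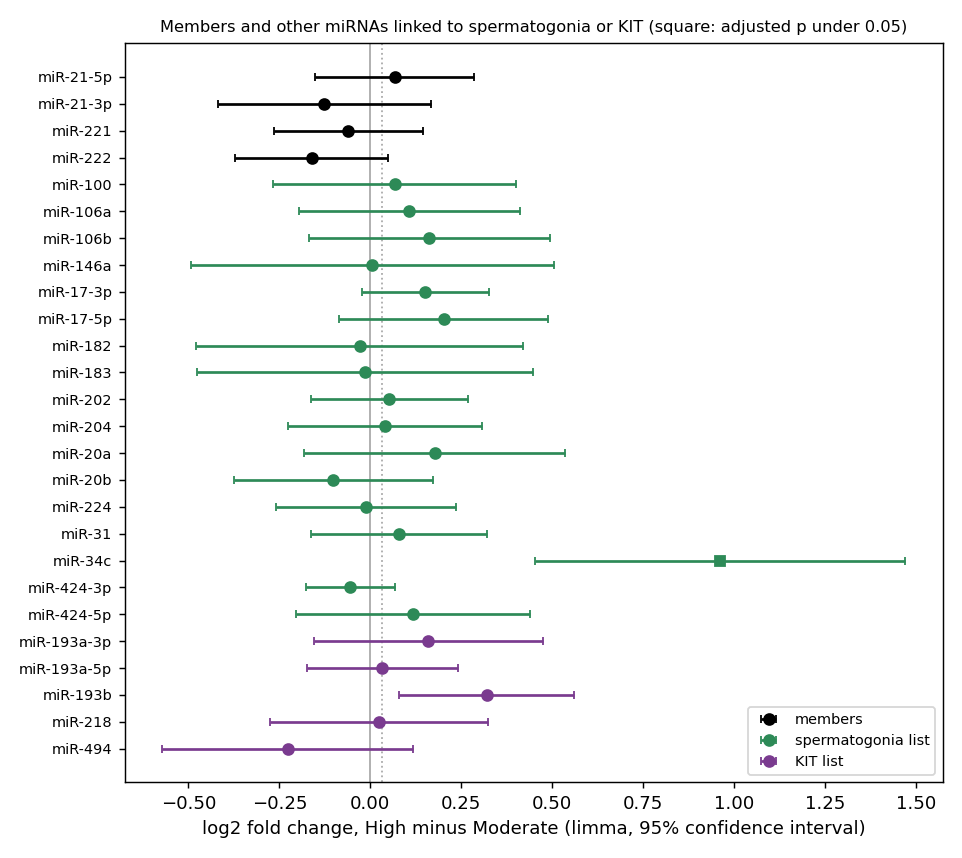
log2 fold change, High minus Moderate, with its 95% confidence interval in limma over 30 libraries (x axis) for the 4 members (black), the spermatogonia list (green) and the KIT list (purple); the square marks an adjusted p under 0.05 and the dotted line the median of all 387 miRNAs. miR-34c, at 0.96, is the 1 square, and the intervals of all 4 members cross 0.

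Markers of other cell types in which the members are also abundant were compared in the same way. For smooth muscle, miR-143 stood at a log2 fold change of -0.11 and miR-145 at -0.15, and the endothelial miR-126-5p and miR-126-3p stood at 0.06 and 0.03. Of the 8 leukocyte entries 0 passed in limma (2, miR-146b and miR-342, had an unadjusted p under 0.05), beside 4.91% of all miRNAs tested, with a median of -0.04. The most abundant were miR-142-5p at -0.02, miR-146b at 0.91 and miR-146a at 0.01 (log2 fold change). miR-146b rose when Moderate replicate 5 was left out (log2 fold change 1.09, adjusted p = 0.0358 in limma, against an adjusted p of 0.145 with it). The summed level of the smooth muscle miRNAs was 83216 to 139866 TMM-scaled CPM under High and 85353 to 178449 under Moderate. That of the endothelial ones was 8981 to 14616 under High and 5125 to 14721 under Moderate. The part of these cells in the members' values was not tested.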

How the data were processed

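Small RNA libraries (TruSeq small RNA kit) came from RNeasy Plus Universal extracts, per the labels' protocols. edgeR 3.5, R 3.4, cutadapt 2.6 and FastQC 0.11.8 are named, per the submitters' processing notes. No aligner, miRNA reference or genome build is named in those sources. The authors deposited a normalized signal per miRNA and library, which the values show to be CPM with TMM-scaled library sizes: 95.3% of the 18379 values above 0 came out as whole reads within 0.02 read, and TMM factors of these reads differed from the implied ones by at most 0.000218 (natural log). All values of the 4 members came out whole.

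The main test was limma 3.58.1 (mean-variance trend) on log2(value + 0.5), diet as the only term, over the 387 miRNAs at 1 or more in at least 15 libraries (fewer in subsets, in proportion). This scale understates changes of low miRNAs. edgeR 4.0.16 (quasi-likelihood) and DESeq2 1.42.0 on rounded recovered reads were alternatives, with R 4.3.3 and scipy 1.17.1. Permutation tests used 100000 resamples. The tests were tried on simulated data with known changes. Named were all members, in the lists described up to 3 tested miRNAs with the highest mean and those past the threshold, and for each member the 3 with the highest rho. miR-20a, miR-223, miR-342, miR-142-3p, miR-1, miR-206, miR-494 without Moderate replicate 5 and the replicates singled out were chosen after their values were seen. Replicate numbers follow accession order. The members and lists were chosen with earlier results of these data known. Each calf gave 1 library, and the labels name no batches.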

Additional observations from a re-analysis of the deposited data

How the results depend on the processing

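No member passed the adjusted threshold of 0.05 in limma, edgeR or DESeq2 under any of the alternatives run. Leaving out 1 library at a time, each member kept its sign, miR-21-3p from -0.16 to -0.015, miR-21-5p from 0.02 to 0.13, miR-221 from -0.13 to -0.03 and miR-222 from -0.21 to -0.13, with adjusted p of at least 0.181 in limma. The sign turned with library totals alone for miR-21-3p (0.083), miR-221 (0.15) and miR-222 (0.047), but not when Moderate replicate 5 was also left out (-0.09, -0.05 and -0.06), with the title diet for miR-21-3p (0.34), miR-221 (0.18) and miR-222 (0.089), in the 12 libraries whose labels match for miR-21-3p (0.27) and miR-221 (0.15), in the 18 with conflicting labels for miR-21-5p (-0.18), and in the 6 deeper libraries for miR-21-5p (-0.046) and miR-221 (0.0065). The ratio of the miR-21 arms turned with the title diet (-0.061). The cause of all these turns was not tested. Left-out libraries moved the log2 difference of the arm ratio from 0.15 to 0.22, of miR-221 over miR-222 from 0.01 to 0.14, and of miR-21-5p over miR-221 and miR-222 from 0.14 to 0.23.

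The count of all miRNAs called was 19, and from 0 (without High replicate 5) to 45 (without Moderate replicate 5) with 1 library left out. It was 0 without the filter, with library totals alone, by title, in the 12 and in the 18 libraries (104, 61, 11, 43 and 58 at an unadjusted p under 0.05 in limma), 36 in edgeR, 50 in DESeq2, 3 in the lower depth range, 2 in the deeper libraries and 31 with library totals and without Moderate replicate 5, an alternative added after the data were seen. No paired analysis was possible because the labels give the libraries no shared replicate numbers. Moderate replicate 5, of 8.88 M reads, had the fewest reads of miR-221 (93) and miR-222 (124).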

Other observations

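Of the 32 relations between the 8 leukocyte entries and the 4 members, 3 passed by r and 0 by rho (diet means subtracted, 30 libraries, permutation p adjusted over 1544 relations). The share of all 1544 relations that passed was not counted, so these counts have no background beside them. Without Moderate replicate 5, 3 passed by r and 1 by rho. Among these was miR-142-3p with miR-222, by r alone (r = 0.62, adjusted permutation p = 0.0347, against 0.0587 for rho). This relation and the 3 over 30 libraries were named after their values were seen. The myeloid miR-223 with miR-21-3p had r = 0.83 (adjusted permutation p = 0.00309) but rho = 0.56 (adjusted 0.157), and r = 0.58 without Moderate replicates 11 and 15. Both arms of miR-142, a miRNA of blood cells, went with miR-221: miR-142-3p had r = 0.70 (adjusted permutation p = 0.00926) and rho = 0.57 (adjusted 0.138), and miR-142-5p r = 0.61 (adjusted 0.0261) and rho = 0.57 (adjusted 0.138). Without Moderate replicate 5 neither passed (r = 0.51 for miR-142-3p, adjusted permutation p = 0.222, and r = 0.56 for miR-142-5p, adjusted 0.0976). Without Moderate replicates 5 and 9 the values of r were 0.54 and 0.55, and in the lower depth range 0.74 and 0.58. miR-146b, which had the highest SD within a diet of the 8 leukocyte entries, had r = -0.26 with miR-21-5p and -0.31 with miR-221, neither past the threshold, and miR-150, miR-155 and miR-342 passed with no member. miR-21-3p varied more between calves of a diet than the typical miRNA, with an SD of 0.41 on the log2 scale against a median of 0.33 over the 387 tested, while miR-21-5p (0.30), miR-221 (0.28) and miR-222 (0.28) varied less.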
